A study of Mus musculus with 12 samples.

Results

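The genes of fatty acid oxidation in mitochondria and peroxisomes were examined in abdominal fat of obese diabetic mice. The set held 32 genes, listed by symbol, of which 30 had a probe set on the array, out of 23185 genes measured. Cpt1b and Hadhb had none and were not analysed here. All animals were BKS.Cg-Dock7m +/+ Leprdb/J, so all groups, controls included, carry the mutation of the leptin receptor gene that makes them obese, and the labels' word WT for the controls refers to the shRNA targets only. At 12 weeks of age they were given adenoviruses that express a short hairpin RNA (shRNA), and tissue was taken 1 week later. Controls got 4e9 plaque-forming units (pfu) of the control virus. The LCN13 group got 2e9 pfu against LCN13, the TSC22D4 group 2e9 pfu against TSC22D4, and each of these also 2e9 pfu of the control virus. The combined group got 2e9 pfu against each gene, without control virus. Every comparison with the control group thus also differs in the dose of control virus. So do those of the combined group with either single-shRNA group, and those of 1 virus averaged over the other. In all of these the effects of shRNA and of control virus dose cannot be told apart. Only the TSC22D4 and LCN13 groups got the same dose of control virus. Each group had 3 arrays, from animals picked as representative out of 7, and replicate numbers below are those of the labels. TSC22D4 is a transcriptional regulator of the TSC22 family and LCN13 a secreted lipocalin, and the labels do not say which tissue the virus reached.

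Fatty acids are activated to acyl-CoA in the cytosol, carried into mitochondria as carnitine esters, and shortened there by repeated rounds of dehydrogenation, hydration, a second dehydrogenation and thiolytic cleavage. Peroxisomes do the same for very long and branched chains and pass the shortened products on to mitochondria. White fat stores fatty acids rather than burning most of them, but its adipocytes hold the whole pathway, and the nuclear receptor PPAR-alpha and its relatives control many of its genes.

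Levels are log2 intensities of a probe set, and differences are log2 differences between group means with their standard error (SE) from limma, fitted over all 23185 genes. Arrays of a group correlated at 0.994 to 0.998 over all probe sets. Of 9 adipocyte markers 8 were measured, and each lay between 12.20 and 14.11 in every array, near the upper end of the values, which ran from 5.62 to 14.38. No lower level of the targets was detected: the difference of Tsc22d4 was -0.0074 (limma adjusted p = 0.989) with TSC22D4 shRNA, and the group means of Lcn13, listed as Obp2a, were 5.72 to 5.76, a barely lit probe set. In LCN13 replicates 5 and 6 the 14 measured mesothelium markers averaged 0.52 and 0.54 above their 12-array mean, against -0.14 in LCN13 replicate 8 and -0.30 to 0.05 in the other groups. Of these markers Upk3b ranged from 8.10 to 9.98 over the arrays, while Bnc1 stayed between 5.91 and 6.25. Not all of them followed the list mean. Cldn15 read 9.69 and 9.65 in LCN13 replicates 5 and 6, against 9.85, 9.53 and 9.82 in controls. Krt8 read 8.18 and 8.14 there and Krt18 7.06 and 7.40, against 8.04 and 7.33 in LCN13 replicate 8. The 15 measured interferon-stimulated genes averaged 1.49 to 1.86 above their 12-array mean in the controls and -0.77 to -0.35 in all other arrays, and their part in the members' differences from control was not tested. Differences of single genes that rest on the LCN13 group are also given without those 2 arrays where they move by over 1.5 times or lose a call, and the remaining LCN13 array is then assumed to vary like the other groups. In bulk tissue fewer cells of a type and less RNA per cell cannot be told apart.

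Against control virus 1 of the 30 genes passed, Crot, which fell with LCN13 shRNA. Calls are at a Benjamini-Hochberg adjusted p under 0.05 over all genes tested. With LCN13 shRNA 1 of 30 passed, where 1.44% of all genes did, 1.04% as lower. With TSC22D4 shRNA 0 of 30 passed by limma (1.17% of all genes), and 0 of 30 in the combined group (1.34%). At an unadjusted p under 0.05 there were 4 members with LCN13 shRNA, all lower, against 12.6% of all genes. There were 3 with TSC22D4 shRNA (2 higher and 1 lower, 11.8% of all genes) and 3 in the combined group (2 higher and 1 lower, 11%). The median difference of the members was 0.01 with TSC22D4 shRNA, -0.03 with LCN13 shRNA and 0.02 in the combined group, beside medians of -0.0022, 0.004 and 0.0015 over all genes. In the moderated F test over the 4 groups Crot alone passed among the members (adjusted p = 0.0139), where 1.61% of all genes did.

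The intervals limit how far most of the members' values could have moved, as they do for most genes. The 95% interval of the difference from control lay within 0.25 log2 of 0, a 1.19-fold change, for 21 of 30 members with TSC22D4 shRNA, 19 with LCN13 shRNA and 17 in the combined group. Over all 23185 genes it did so for 15987, 15709 and 16081. It lay within 0.50 log2, 1.41-fold, for 29, 29 and 28 members, and for 21508, 21461 and 21661 of all genes. Acot1 is counted in each, though its probe set was so dim that changes are compressed. Ehhadh had the widest intervals, from -0.80 to -0.038 with LCN13 shRNA, -0.53 to 0.22 with TSC22D4 shRNA and -0.58 to 0.18 in the combined group. The LCN13 difference of Ehhadh, -0.42, was -0.098 without LCN13 replicates 5 and 6. Ppara was the other member past that limit, with 0.046 to 0.50 in the combined group.

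**Figure D1:**
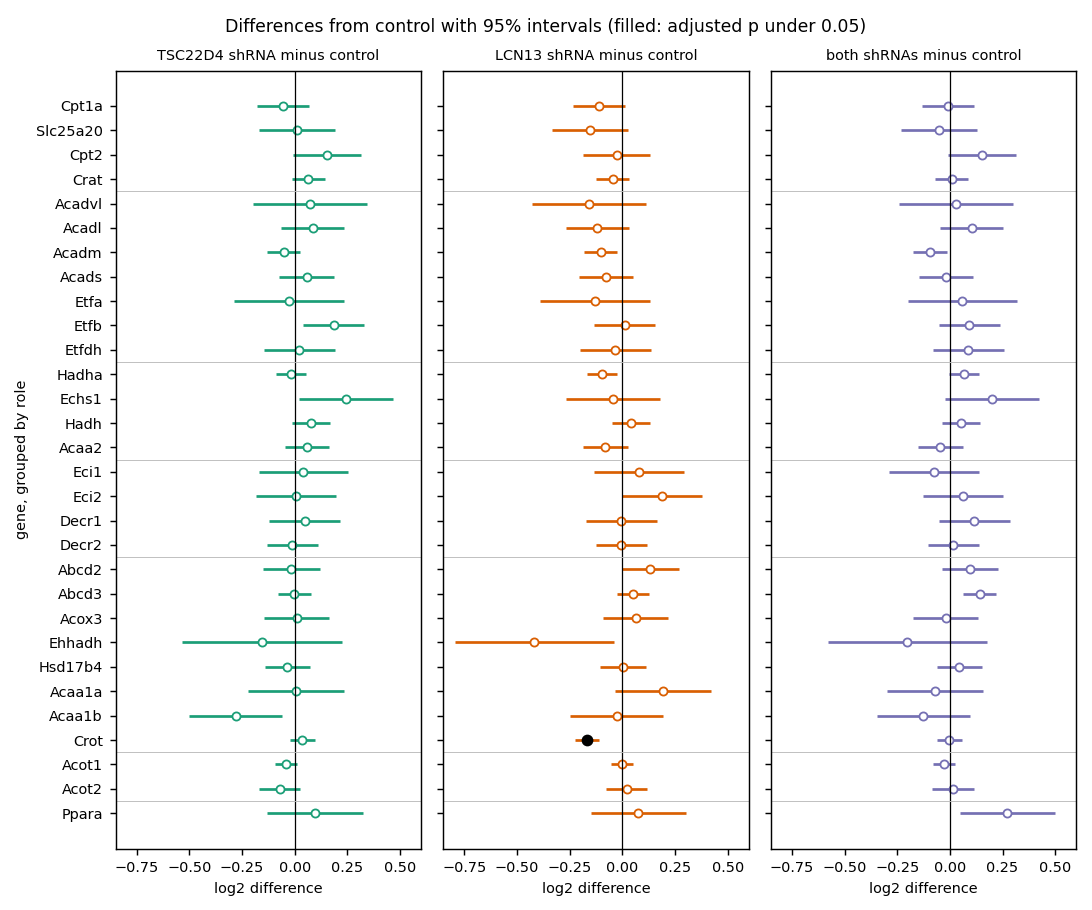
Log2 differences from control of the 30 measured genes (rows, grouped by role) with TSC22D4 shRNA, LCN13 shRNA and both, with 95% intervals from limma; filled black points passed at an adjusted p under 0.05. Crot with LCN13 shRNA, at -0.17, is the only filled point, and Ehhadh has the widest intervals.

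The carnitine shuttle moves acyl groups across the inner mitochondrial membrane. Cpt1a makes acylcarnitines at the outer membrane, Slc25a20 exchanges them across the inner one, Cpt2 turns them back into acyl-CoA, and Crat buffers short-chain groups. Cpt2 read 11.05, 10.95 and 10.91 in controls, 10.88, 10.84 and 11.12 with LCN13 shRNA, 11.04, 11.21 and 11.12 with TSC22D4 shRNA, and 11.13, 11.12 and 11.12 in the combined group. The combined group lay above all controls, as for 7.72% of all genes, while LCN13 replicate 8 stood apart from the other 2 arrays of its group. Its difference from control was 0.15 (SE 0.071, adjusted p = 0.488) in the combined group and 0.15 (adjusted p = 0.449) with TSC22D4 shRNA. Crat read 12.53, 12.44 and 12.46 in controls, 12.39, 12.44 and 12.47 with LCN13, 12.52, 12.54 and 12.56 with TSC22D4, and 12.42, 12.50 and 12.53 with both. All TSC22D4 arrays lay above all LCN13 arrays, as for 2351 of 23185 genes, and the controls overlapped with each of them. The TSC22D4 minus LCN13 difference of Crat was 0.11 (SE 0.035, adjusted p = 0.158), and 0.066 without LCN13 replicates 5 and 6. Cpt1a, the rate-limiting step, stayed between 11.46 and 11.71 over the 12 arrays, and its differences from control were -0.06, -0.11 (-0.067 without LCN13 replicates 5 and 6) and -0.01 with TSC22D4, LCN13 and both. Slc25a20 stayed between 9.89 and 10.26.

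The acyl-CoA dehydrogenases take chains of falling length, Acadvl the very long, Acadl the long, Acadm the medium and Acads the short ones. Their electrons pass through the flavoprotein of Etfa and Etfb to Etfdh and on to the respiratory chain. With LCN13 shRNA 6 of these 7 genes had a mean below control and 0 passed by limma, with 1 at an unadjusted p under 0.05. Only 1 of the 7, Acadm, had a mean below control without LCN13 replicates 5 and 6. Acadl read 10.91, 10.88 and 10.81 in controls, 10.70, 10.65 and 10.89 with LCN13, 10.88, 11.01 and 10.97 with TSC22D4, and 10.96, 10.89 and 11.05 with both. LCN13 replicates 5 and 6 were the lowest of all arrays and replicate 8 lay among the controls. The differences of Acadl from control were -0.12 (SE 0.066, adjusted p = 0.521) with LCN13, which was 0.028 without replicates 5 and 6, 0.09 with TSC22D4 and 0.10 with both. Etfb read 12.12, 12.03 and 11.94 in controls, 12.01, 11.98 and 12.14 with LCN13, 12.28, 12.28 and 12.09 with TSC22D4, and 12.12, 12.08 and 12.16 with both. The first 2 of its TSC22D4 arrays were the highest of all, and the third overlapped the controls. Its difference with TSC22D4 shRNA was 0.19 (SE 0.064, adjusted p = 0.276). Acadm was lower than in every control in all LCN13 and all combined-group arrays, at 12.71, 12.67 and 12.77 and at 12.76, 12.74 and 12.68 against 12.80, 12.84 and 12.83. Its differences were -0.10 (adjusted p = 0.253) and -0.09 (adjusted p = 0.342), the first -0.05 without LCN13 replicates 5 and 6. Groups that do not overlap in this direction were found for 6.93% and 7.22% of all genes. Acadvl reached its lowest value, 8.91, in LCN13 replicate 6 and its highest, 9.50, in combined-group replicate 16. Acads spanned 10.73 to 11.07, Etfa 8.95 to 9.40 and Etfdh 10.68 to 11.08.

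The next steps are run by Echs1, the short-chain enoyl-CoA hydratase, Hadh, the short-chain hydroxyacyl-CoA dehydrogenase, the thiolase Acaa2, and Hadha, the alpha subunit of the trifunctional protein that serves long chains. Hadha read 11.84, 11.92 and 11.81 in controls, 11.71, 11.78 and 11.79 with LCN13, 11.85, 11.85 and 11.81 with TSC22D4, and 11.92, 11.91 and 11.95 with both. All LCN13 arrays lay below all 9 others, a pattern shared with Crot and with 1.26% of all genes. Hadha did not pass: its difference was -0.10 with LCN13 shRNA (SE 0.031, adjusted p = 0.222), 0.17 between the combined and LCN13 groups (adjusted p = 0.159), and 0.18 for the interaction (SE 0.045, adjusted p = 0.236), the change of the TSC22D4 difference when the LCN13 virus is present. With array weights in the fit the LCN13 difference of Hadha was -0.15 (adjusted p = 0.0413), where 2.93% of all genes passed, and without LCN13 replicates 5 and 6 it was -0.066 (adjusted p = 0.748). Echs1 read 10.88, 10.91 and 10.74 in controls, 10.72, 10.64 and 11.04 with LCN13, 11.14, 11.07 and 11.04 with TSC22D4, and 11.16, 10.92 and 11.05 with both. All 6 arrays with TSC22D4 virus lay above the controls, and LCN13 replicate 8 lay among them. Of 23185 genes, the TSC22D4 group lay above the controls for 1918 and the combined group for 1789. The difference of Echs1 averaged over the LCN13 virus was 0.24 (SE 0.070, adjusted p = 0.133), and 0.12 without LCN13 replicates 5 and 6. Acaa2 stayed between 11.76 and 12.05 and Hadh between 12.95 and 13.15, and their largest differences from control were -0.08 with LCN13 shRNA (-0.0033 without its replicates 5 and 6) and 0.08 with TSC22D4 shRNA.

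Unsaturated fatty acids need extra enzymes that move or remove double bonds, the isomerases Eci1 and Eci2 and the dienoyl-CoA reductases Decr1 of mitochondria and Decr2 of peroxisomes. None of the 4 passed by limma in any comparison, and 0 of the 4 had an unadjusted p under 0.05 in the comparisons with control. Eci2 read 9.08, 9.14 and 8.83 in controls, 9.06, 9.22 and 9.33 with LCN13, 9.02, 9.05 and 8.99 with TSC22D4, and 9.07, 9.03 and 9.14 with both. The groups overlapped with control. Its LCN13 difference was 0.19 (SE 0.084, adjusted p = 0.407), and 0.32 without LCN13 replicates 5 and 6. Decr1 read 11.16, 10.93 and 10.83 in controls, 11.00, 10.88 and 11.04 with LCN13, 11.06, 10.99 and 11.02 with TSC22D4, and 11.06, 11.11 and 11.11 with both, and the controls had the widest spread (SD 0.17, n = 3). Decr2 stayed between 10.32 and 10.56, and Eci1 between 9.77 and 10.15.

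Crot is carnitine octanoyltransferase, the peroxisomal enzyme that loads medium-chain products of peroxisomal oxidation onto carnitine for transfer to mitochondria. Crot read 10.55, 10.48 and 10.54 in controls, 10.40, 10.31 and 10.35 with LCN13 shRNA, 10.57, 10.56 and 10.55 with TSC22D4 shRNA, and 10.52, 10.50 and 10.54 in the combined group. All 3 LCN13 arrays lay below the other 9, and the combined group overlapped the controls. Crot fell by 0.17 with LCN13 shRNA against control (SE 0.026, 95% interval -0.23 to -0.11, limma adjusted p = 0.0136), which is 10.9% less on the linear scale. It was higher by 0.20 in the TSC22D4 than in the LCN13 group (SE 0.026, adjusted p = 0.0212), where 1.03% of all genes passed, 0.457% as higher. Averaged over the other virus, Crot was lower by -0.10 with LCN13 virus (adjusted p = 0.0358), where 1.08% of all genes passed, 0.729% as lower, and higher by 0.10 with TSC22D4 virus (adjusted p = 0.0362), where 1.39% passed, 0.561% as higher. In the combined group it differed from control by -0.0032 (interval -0.06 to 0.06). The difference between the combined and LCN13 groups was 0.16 (adjusted p = 0.117) and the interaction was 0.13 (SE 0.037, adjusted p = 0.368), so neither passed. The Crot call with LCN13 shRNA rests on a small spread, a residual SD of 0.031 against a median of 0.085 over the members. It was lost with a prior that follows intensity and is robust (adjusted p = 0.201), with only the probe sets above the median intensity (0.108), with the 6 arrays alone (0.167), and without LCN13 replicate 6 (-0.15, adjusted p = 0.0503). Without LCN13 replicates 5 and 6 the difference was -0.17 and the call was lost. The TSC22D4 minus LCN13 call was lost without LCN13 replicate 5 or 6 or any 1 of the 3 TSC22D4 arrays (adjusted p up to 0.0753). Without LCN13 replicates 5 and 6 together it was lost too, at a difference of 0.21. When each array was left out in turn, the averaged TSC22D4 call held only without control replicate 1 or LCN13 replicate 5 or 8, and the averaged LCN13 call only without control replicate 2 or LCN13 replicate 5 (adjusted p up to 0.0919 and 0.0936).

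**Figure D2:**
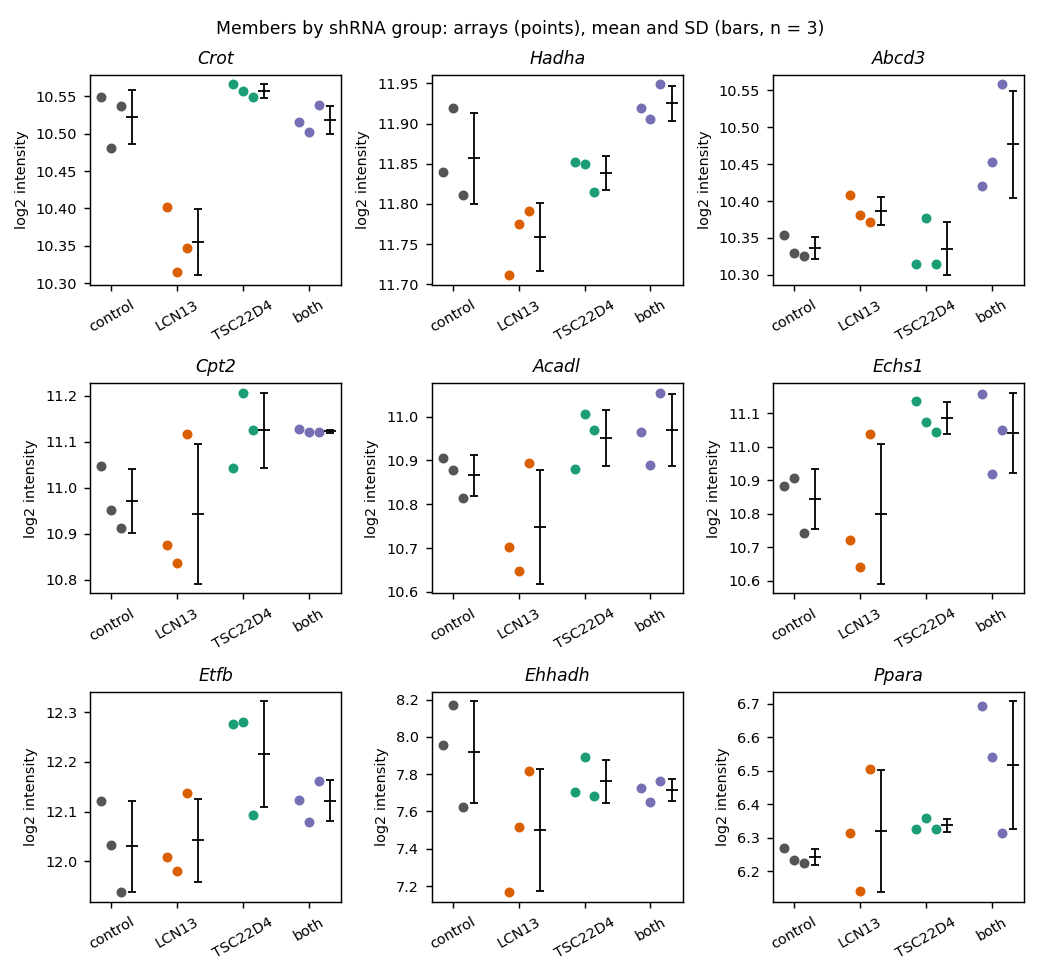
Log2 intensity of 9 members in each of the 12 arrays (points, by shRNA group) with the group mean and SD (n = 3); the vertical axes differ between panels. For Crot and Hadha the LCN13 arrays sit below all others, and for Cpt2, Acadl and Echs1 LCN13 replicate 8 (rightmost LCN13 point) sits above replicates 5 and 6.

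The other peroxisomal genes code for the importers Abcd2 and Abcd3, the oxidase Acox3, the bifunctional enzymes Ehhadh and Hsd17b4, and the thiolases Acaa1a and Acaa1b. Abcd3 read 10.35, 10.33 and 10.33 in controls, 10.41, 10.38 and 10.37 with LCN13, 10.31, 10.38 and 10.31 with TSC22D4, and 10.42, 10.45 and 10.56 with both. The combined group had the highest mean and lay above all controls, as for 7.72% of all genes. Its difference from control was 0.14 (SE 0.034, adjusted p = 0.10) and did not pass. Ehhadh, a textbook PPAR-alpha target, varied most within groups, with 7.96, 8.17 and 7.63 in controls, 7.17, 7.52 and 7.82 with LCN13, 7.71, 7.89 and 7.68 with TSC22D4, and 7.73, 7.65 and 7.76 with both. The groups overlapped, and its LCN13 difference of -0.42 (SE 0.17) did not pass (adjusted p = 0.343), and replicate 8 alone lay -0.098 from control. Acaa1b differed by -0.28 (SE 0.098, adjusted p = 0.281) with TSC22D4 shRNA, where its arrays read 7.20, 7.21 and 7.02 against 7.62, 7.24 and 7.40 in controls, with no overlap, as for 8.38% of all genes. Acaa1a and Acaa1b are close copies, as are Acot1 and Acot2, so that probe signal may be shared and each is uncertain. Acaa1a differed by 0.0049 with TSC22D4 and 0.19 with LCN13 shRNA (adjusted p = 0.994 and 0.490), the second 0.094 without LCN13 replicates 5 and 6. Abcd2, Acox3 and Hsd17b4 stayed within 12.46 to 12.76, 9.85 to 10.13 and 10.84 to 11.07. The LCN13 arrays of Abcd2 and Abcd3 lay above all controls, as for 2029 of 23185 genes. Their LCN13 differences from control were 0.13 and 0.05 (limma adjusted p = 0.409 and 0.615), and neither passed.

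The acyl-CoA thioesterases Acot1 of the cytosol and Acot2 of mitochondria release free fatty acids from acyl-CoA. Acot2 read 9.61, 9.54 and 9.61 in controls, 9.58, 9.65 and 9.58 with LCN13, 9.52, 9.57 and 9.45 with TSC22D4, and 9.56, 9.69 and 9.55 with both. The groups overlapped with control, and the largest difference from control was -0.07, with TSC22D4 shRNA. Acot1 read 5.85, 5.82 and 5.89 in controls, 5.88, 5.82 and 5.85 with LCN13, 5.84, 5.80 and 5.80 with TSC22D4, and 5.82, 5.81 and 5.84 with both. These are among the dimmest values on the array, where changes are compressed, and the groups overlapped. Ppara, the nuclear receptor itself, was dim as well, with 6.27, 6.24 and 6.22 in controls, 6.31, 6.14 and 6.50 with LCN13, 6.33, 6.36 and 6.33 with TSC22D4, and 6.69, 6.54 and 6.31 with both. Each combined-group array lay above the controls, as for 7.72% of all genes. Its difference was 0.27 (SE 0.10, adjusted p = 0.33) and did not pass.

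The members did not move as a block. Over the 435 pairs of members the median Pearson correlation across the 12 arrays was 0.19, and 0.25 after the group means were removed. The highest correlations among these pairs were between mitochondrial genes: Cpt2 with Acadl at 0.90, Acadvl with Acads at 0.87, Cpt2 with Echs1 at 0.86, and Acadl with Echs1 at 0.84. Slc25a20 and Ehhadh correlated at 0.84, and Cpt1a ran opposite to Eci1, at -0.83. These values are descriptions, since the pairs were picked as the most extreme and the points share arrays and one normalization. With group means removed Cpt2 with Acadl was at 0.86, Acadvl with Acads at 0.85, Slc25a20 with Ehhadh at 0.80, Acadl with Echs1 at 0.74, Cpt2 with Echs1 at 0.69 and Cpt1a with Eci1 at -0.85. Against the mean of the other members the correlations ran from -0.33 for Acaa1a to 0.88 for Etfa, with Acadl and Cpt2 at 0.79. The 8 peroxisomal genes spread from -0.33 to 0.58 for Hsd17b4, and low values were also found outside that role, at -0.28 for Acot1, -0.24 for Acot2 and 0.016 for Cpt1a.

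**Figure D3:**
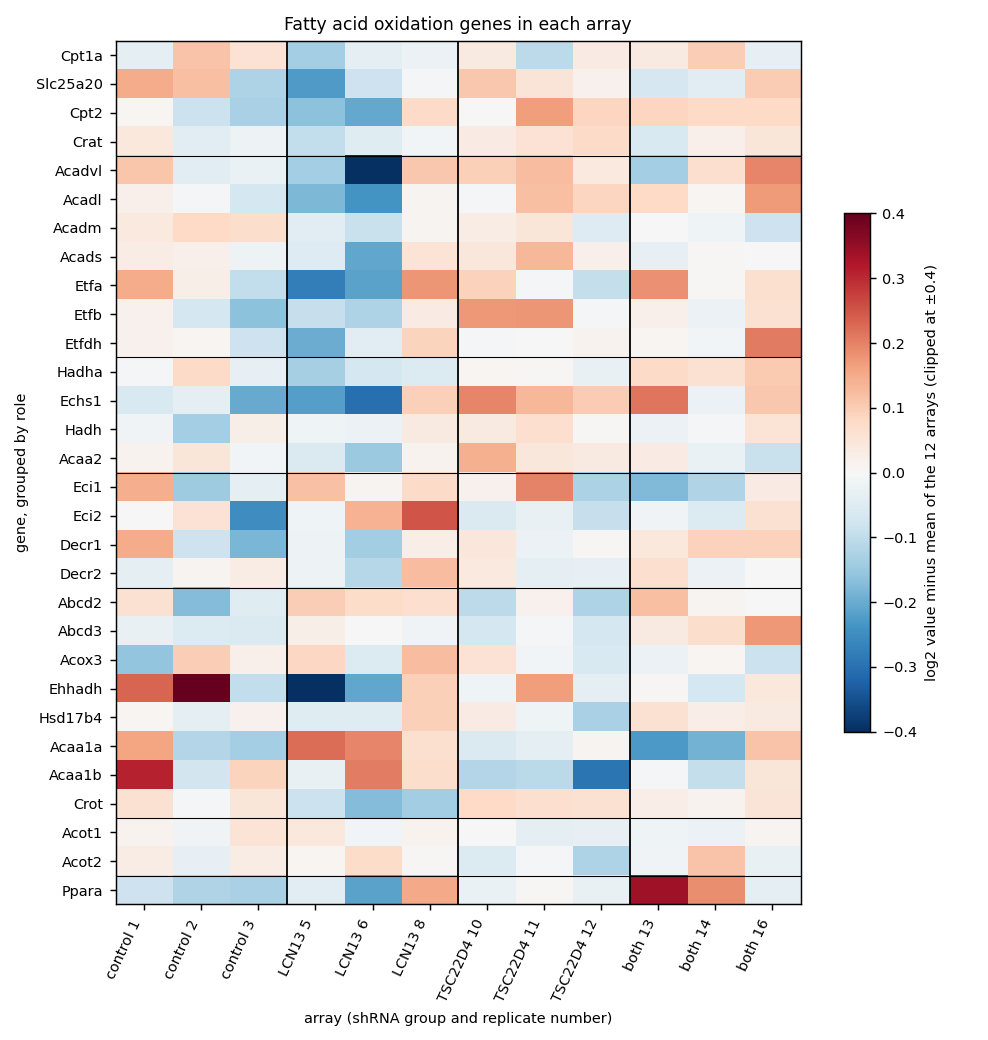
Each of the 30 measured genes (rows, grouped by role) in each array (columns, grouped by shRNA group), as log2 value minus the gene's 12-array mean, red above and blue below, with colours clipped at 0.4. LCN13 replicates 5 and 6 are blue over most mitochondrial rows and LCN13 replicate 8 is not, while the Crot row is blue in all 3.

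The widest split within a group was that between LCN13 replicate 8 and replicates 5 and 6. Relative to each gene's 12-array mean, the 30 members averaged -0.075 in replicate 5 and -0.083 in replicate 6, the 2 lowest arrays, and 0.054 in replicate 8, the highest. In 22 of 30 members replicate 8 lay above both of the others and in 4 below both. It was higher than their mean by 0.48 for Ehhadh, 0.42 for Etfa, 0.37 for Acadvl, 0.36 for Echs1 and 0.26 for Cpt2, and differed by -0.01 for Crot. The mean of replicates 5 and 6 was below the control mean in 22 of 30 members (median -0.07), and replicate 8 in 11 of 30 (median 0.07). The dehydrogenases and electron transfer genes averaged -0.14 and -0.19 in replicates 5 and 6 and 0.07 in replicate 8, and the peroxisomal genes -0.037, -0.0021 and 0.046. Mesothelium markers were high in replicates 5 and 6, as given above, and liver markers (14 of 15 measured) averaged 0.24 and 0.29 there and 0.01 in replicate 8, against -0.24 to 0.29 in the other groups. Red blood cell markers (3 of 6 measured) split the other way, at -0.70 in both of those arrays and 0.36 in replicate 8, against -0.88 to 0.77 in the other groups. Brown and beige adipocyte markers (all 10 measured) averaged -0.091 and -0.17 against -0.015, and -0.019 to 0.10 elsewhere. Adipocyte markers stayed between -0.07 and 0.05 in all 12 arrays. Across arrays the mesothelium mean correlated at -0.81 with Acads, -0.78 with Ehhadh, -0.74 with Acadl and -0.60 with Crot, and at 0.69 with Acaa1a. The part of any of these cell types in the members' values was not tested. Without replicates 5 and 6 the median difference with LCN13 shRNA was 0.07 in place of -0.03, with 19 of 30 members above 0 in place of 11. Without replicate 8, Cpt2 (0.27, adjusted p = 0.0375), Acadl (0.28, adjusted p = 0.0408) and Echs1 (0.40, adjusted p = 0.0333) passed as higher in the TSC22D4 than in the LCN13 group, beside Crot, in a fit where 2.51% of all genes passed.

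**Figure D4:**
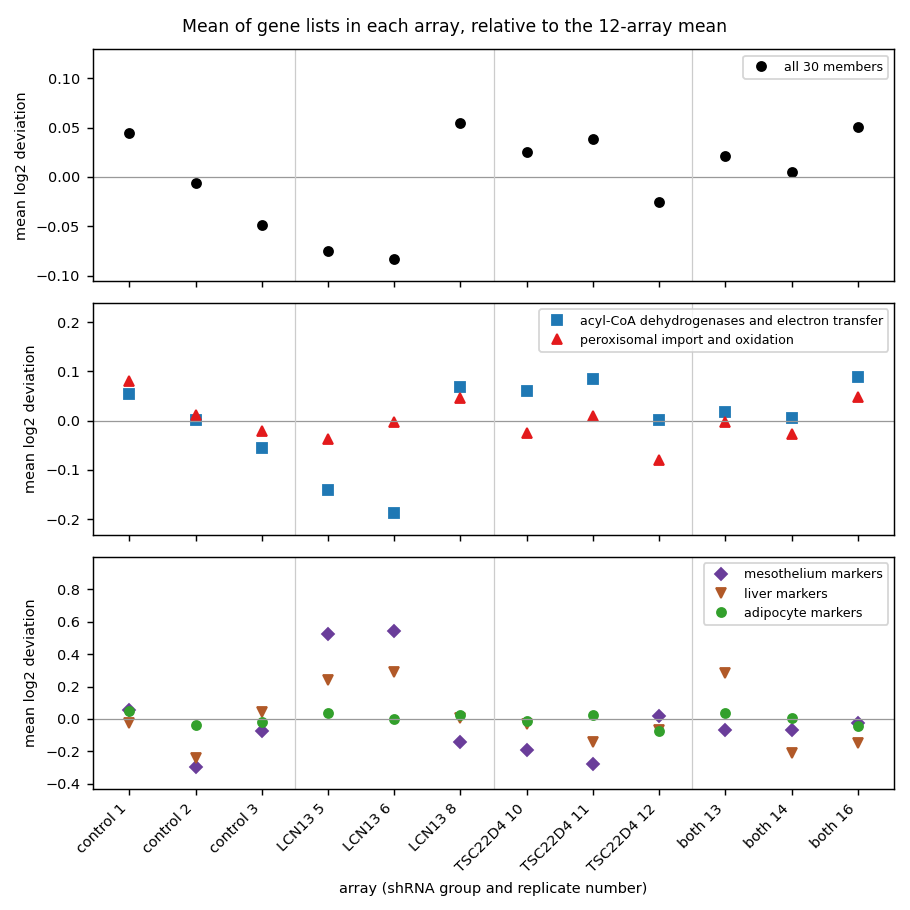
Mean log2 deviation from the 12-array mean in each array for all 30 measured members (top), for 2 of their roles (middle) and for cell type markers (bottom). LCN13 replicates 5 and 6 are the lowest arrays for the members, at -0.075 and -0.083, and the highest for mesothelium markers, at 0.52 and 0.54.

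The TSC22D4 and LCN13 groups share no reference arrays with each other and received the same amount of control virus. Between them 1 of 30 members passed, where 1.03% of all genes did, and 11 of 30 had an unadjusted p under 0.05, 9 of them higher in the TSC22D4 group, against 17.7% of all genes. All 7 dehydrogenase and electron transfer genes, all 4 shuttle genes and all 4 genes of the hydratase, dehydrogenase and thiolase steps had higher means in the TSC22D4 group. In the peroxisomal role 6 of 8 genes had lower means there. With LCN13 replicates 5 and 6 left out, the genes with higher means were 3 of 7, 4 of 4 and 4 of 4, and 7 of 8 peroxisomal genes had lower means. The shuttle differences were then only 0.0078 to 0.066, in place of 0.053 to 0.18. Those of the hydratase, dehydrogenase and thiolase steps were 0.00065 to 0.061, in place of 0.037 to 0.29. Without LCN13 replicates 5 and 6 the median over the 30 members was -0.03 in place of 0.05, and 12 members lay above 0 in place of 19. Between the combined and TSC22D4 groups 0 of 30 members and 0 of all genes passed by limma. At an unadjusted p under 0.05 there were 2 of 30 members, against 6.91% of all genes. These 2 groups did not overlap for 3 members higher and 3 lower in the combined group, beside 1800 and 1568 of 23185 genes. Against LCN13 shRNA alone the combined group had 0 of 30 (0.00863% of all genes), with 7 at an unadjusted p under 0.05, 6 of them higher, against 10.7% of all genes. The interaction passed for 0 of 30 members (0.397% of all genes), with 2 at an unadjusted p under 0.05, Hadha and Crot, against 7.08% of all genes.

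Promoters are shown for Crot, the member that passed, and for Cpt2, Acadl and Echs1, 3 genes of successive steps that correlated at 0.84 or more with one another. The 250 bases before the start come from RefSeq (GRCm38.p6), which listed 25 of the 30 measured genes, in 26 windows, and not Acaa2, Crat, Hsd17b4, Abcd2 or Decr1. They are written 5′ to 3′ on the gene's strand, and capitals mark the nuclear receptor half-site AGGTCA, the GC box GGGCGG and the CCAAT box, on either strand.
Crot, chr5:8997147-8997396, minus strand: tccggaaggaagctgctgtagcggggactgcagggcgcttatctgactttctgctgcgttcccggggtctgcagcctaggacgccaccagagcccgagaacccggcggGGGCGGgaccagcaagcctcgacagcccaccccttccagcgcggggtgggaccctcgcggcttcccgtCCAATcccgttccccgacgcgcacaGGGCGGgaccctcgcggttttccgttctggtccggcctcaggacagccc
Cpt2, chr4:107923590-107923839, minus strand: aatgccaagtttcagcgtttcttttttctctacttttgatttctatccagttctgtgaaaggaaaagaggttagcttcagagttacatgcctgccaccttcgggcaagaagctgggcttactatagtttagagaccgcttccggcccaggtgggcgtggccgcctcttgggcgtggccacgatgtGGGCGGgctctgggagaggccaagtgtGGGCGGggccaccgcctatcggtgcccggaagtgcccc
Acadl, chr1:66863310-66863559, minus strand: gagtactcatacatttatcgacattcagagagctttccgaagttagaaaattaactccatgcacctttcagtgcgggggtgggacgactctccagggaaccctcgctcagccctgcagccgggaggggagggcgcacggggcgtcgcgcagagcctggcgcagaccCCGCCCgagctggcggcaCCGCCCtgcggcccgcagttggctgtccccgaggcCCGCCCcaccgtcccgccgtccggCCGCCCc
Echs1, chr7:140116422-140116671, minus strand: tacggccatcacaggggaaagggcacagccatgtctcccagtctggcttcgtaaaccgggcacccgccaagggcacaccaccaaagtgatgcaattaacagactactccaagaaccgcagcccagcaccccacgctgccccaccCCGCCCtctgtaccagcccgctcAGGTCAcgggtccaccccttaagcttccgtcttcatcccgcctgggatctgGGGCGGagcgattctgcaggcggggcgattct

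The half-site, which PPAR and other nuclear receptors bind, occurred in 4 of the 26 windows, 15.4%, those of Acadm, Acadvl, Cpt1a and Echs1, and in 14% of all 32851 windows of that length. In Echs1 it starts 83 bases before the gene. The classic PPAR element, a direct repeat of AGGTCA with 1 base between the copies, and TCAAGGTCA, the element of the estrogen-related receptors, both of which contain AGGTCA, were in 0 of 26 windows, beside 0.0335% and 0.387% of all windows. GGGCGG, the GC box, was in 17 of 26 windows (65.4%), against 32.7% of all, and CCAAT in 12 (46.2%), against 33.8%. The members' windows were richer in G and C, with a median GC content of 60.0% against 52.4%. Crot held 2 GC boxes and 1 CCAAT box, and Acadl 4 GC boxes. A match in these letters is a description of the sequence.

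Among genes that feed or regulate the pathway, 59 of a list of 68 were measured. Of these 2 passed lower and 0 higher with TSC22D4 shRNA, where 1.17% of all genes passed. With LCN13 shRNA 3 passed lower and 0 higher (1.44% of all genes), and in the combined group 1 lower and 0 higher (1.34%). Most calls over all genes were lower as well: 204 of 272, 241 of 333 and 238 of 311. Slc27a1, a fatty acid transporter of the plasma membrane, read 11.19, 11.25 and 11.24 in controls and lay between 10.76 and 10.93 in the 9 other arrays, with no overlap. Of all genes, 8.38% lay below all controls in the TSC22D4 group, 6.93% in the LCN13 group and 7.22% in the combined group. Pdk4, which shuts off pyruvate oxidation when fat is burned, read 11.57, 11.19 and 11.38 in controls, 10.77, 10.63 and 10.39 with LCN13, 10.61, 10.52 and 10.54 with TSC22D4, and 11.38, 11.35 and 10.95 with both. Both single-shRNA groups lay below all controls while the combined group overlapped them. Acacb, the acetyl-CoA carboxylase whose product inhibits Cpt1, read 9.59, 9.32 and 9.05 in controls and 8.75, 8.68 and 8.41 with LCN13 shRNA, a fall of 0.70 (SE 0.13, adjusted p = 0.0325) that was lost without any one of the LCN13 arrays and in 9 of 12 fits that left out 1 array (adjusted p up to 0.107). The TSC22D4 call of Pdk4 was lost without control replicate 1 or 3 or any 1 of the TSC22D4 arrays (adjusted p up to 0.0976). The LCN13 call of Pdk4 was lost without control replicate 1 or 3, LCN13 replicate 6 or 8, or TSC22D4 replicate 10 (adjusted p up to 0.0867). Without LCN13 replicates 5 and 6 the LCN13 calls of Slc27a1, Pdk4 and Acacb were lost, but their differences did not shrink. With the remaining LCN13 array alone they were -0.39, -0.99 and -0.90, in place of -0.35, -0.78 and -0.70.

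Pex11a, a membrane protein of peroxisome division, rose with TSC22D4 virus averaged over the LCN13 virus (0.28, SE 0.041, adjusted p = 0.0145). It read 10.14, 10.08 and 9.99 in controls, 9.89, 10.01 and 10.00 with LCN13, 10.24, 10.34 and 10.20 with TSC22D4, and 10.38, 10.23 and 10.37 with both. All 6 arrays with TSC22D4 virus lay above the 6 without, which held for 0.643% of all genes. Between the TSC22D4 and LCN13 groups, which got the same dose of control virus, Pex11a differed by 0.30 and did not pass (limma adjusted p = 0.05005). The averaged call held in all 12 fits without 1 array (adjusted p up to 0.0434). It was lost without LCN13 replicates 5 and 6, at a difference of 0.26. Scp2, a thiolase and lipid carrier of peroxisomes, differed by 0.30 in the same direction and did not pass (adjusted p = 0.0597), and by 0.19 without LCN13 replicates 5 and 6. Ppargc1b, a coactivator of mitochondrial genes, was at -0.32 with LCN13 shRNA (adjusted p = 0.0711). Acsl5, an acyl-CoA synthetase, was at -0.13 with TSC22D4 virus averaged (adjusted p = 0.075), and Pex19, a chaperone of peroxisomal membrane proteins, at 0.14 between the TSC22D4 and LCN13 groups (adjusted p = 0.0872).

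**Figure D5:**
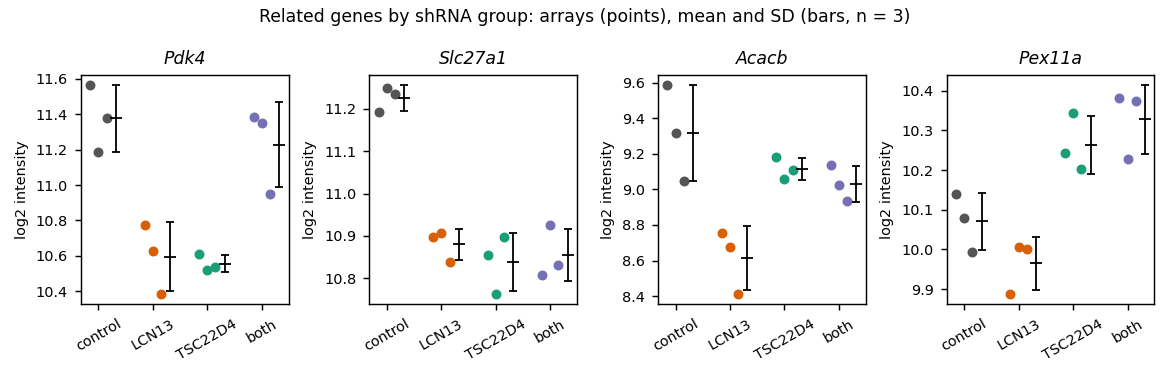
Log2 intensity of Pdk4, Slc27a1, Acacb and Pex11a in each array (points, by shRNA group) with the group mean and SD (n = 3); the vertical axes differ between panels. Pdk4 is low in both single-shRNA groups and near control with both, and Slc27a1 is low in all 3 groups.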

How the data were processed

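RNA of abdominal fat from 12 mice was hybridised to Affymetrix arrays, per the labels' protocols. The authors deposited 1 log2 value per probe set and array, made with RMA per the submitters' processing notes; its settings, probe set definitions and build: not given in the sources used here. Sorted columns differed by at most 0.0019, so a change shared by most genes is removed. Separately, changes at low values are compressed. The number of arrays limits the precision. Of 25206 probe sets, 23185 had 1 gene symbol, 0 had several and 2021 had none.

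Named probe sets were tested in R 4.3.3 by limma 3.58.1 (lmFit and eBayes with contrasts; 1 mean per group over 12 arrays; 8 residual and 1.38 prior degrees of freedom), two-sided, with Benjamini-Hochberg adjustment over all genes and calls under 0.05. The code was tested on simulated data. Every measured member is named; values in every array are given for members that passed and, in each role, for the 2 with the smallest p of the F test. Acadm, Acaa1b and Ehhadh were added after their values were seen. Related genes that passed, and the 4 others with the smallest p of the F test, are named. The members and lists were chosen with earlier results of these data known. Alternatives were the arrays compared alone, array weights, another variance prior, brighter probe sets, all probe sets, and leaving out arrays.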

Additional observations from a re-analysis of the deposited data

Results flagged for a closer look

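Among the genes that feed or regulate the pathway, the interaction of the 2 viruses passed for Pdk4 and Slc27a1, and for 0 of the 30 members by limma (2 at an unadjusted p under 0.05). It passed for 0.397% of all genes, 85 of 92 as positive, and as positive for 11 of the 15 interferon-stimulated genes. Slc27a1 averaged 11.23 in controls and 10.88, 10.84 and 10.85 with LCN13, TSC22D4 and both, so that the controls alone stood apart. What the 2 patterns share was not tested. For Pdk4 the TSC22D4 difference was -0.82 without the LCN13 virus and 0.63 with it, an interaction of 1.45 (SE 0.20, limma adjusted p = 0.0148); leaving out each array in turn, it held in 9 of 12 fits and reached 0.0535 at most, without TSC22D4 replicate 10 or 11 or combined-group replicate 14. For Slc27a1 the TSC22D4 difference was -0.39 without the LCN13 virus and -0.03 with it, an interaction of 0.36 (SE 0.058, adjusted p = 0.0367); it held in 1 of 12 such fits, that without TSC22D4 replicate 12 (0.0399), and reached 0.106. Without LCN13 replicates 5 and 6 neither passed (1.66, adjusted p = 0.068, and 0.40, adjusted p = 0.16).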

How the results depend on the processing

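No paired analysis was possible because the groups share no replicate numbers. The count of members called with LCN13 shRNA, 1 above, was 2 with array weights and 0 with the 2 groups alone, the prior that follows intensity, the probe sets above the median intensity, and without LCN13 replicates 5 and 6. Between the TSC22D4 and LCN13 groups, 1 above, it was 0 under those last 4 settings. For both averaged effects, 1 each above, it was 0 with that prior, with the brighter probe sets and without LCN13 replicates 5 and 6. Leaving out 1 array gave 0 to 1 with LCN13 shRNA, 0 to 4 between the TSC22D4 and LCN13 groups, 0 to 4 for TSC22D4 virus averaged and 0 to 1 for LCN13 virus averaged. In the other 4 pairwise comparisons and for the interaction, 0 members were called by limma under every setting run.

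Without LCN13 replicates 5 and 6 the median member difference was 0.071 with LCN13 shRNA, -0.024 between the combined and LCN13 groups, -0.029 between the TSC22D4 and LCN13 groups and -0.047 for the interaction. For the interaction it was 0.064 above and 0.0082 to 0.102 when 1 array was left out. Over all genes the LCN13 count of 333 was 680 with array weights, 102 with the 2 groups alone and 100 without LCN13 replicates 5 and 6. The causes were not tested. The intervals are per gene and unadjusted, so they do not mark the smallest difference that could be called over all genes. With LCN13 shRNA the interval of Hadha, -0.17 to -0.027, excluded 0 without a call. With 3 arrays a group small differences could be missed, and dim probe sets such as Acot1 and Ppara bound little.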
